A study of Homo sapiens with 6 samples.

Results

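Integrins, the proteins that link them to actin, and the genes of the actin cytoskeleton were followed in HK-2 cells treated with TEPP-46. The genes were 50 listed symbols, namely 12 integrin subunits, 11 focal adhesion linkers, 2 cytoplasmic actins, 6 crosslinkers and scaffolds, 6 regulators of filament assembly, 6 tropomyosin, caldesmon and calponin genes, 3 ezrin, radixin and moesin (ERM) genes, and 4 genes of the Arp2/3 complex. All 50 were found by Ensembl identifier among the 29483 genes of the FPKM table (fragments of a gene per unit of exon length and of library depth). HK-2 is an established human line labelled as renal proximal tubular epithelium, and TEPP-46 is an activator of the glycolytic enzyme pyruvate kinase M2. The control group (n = 3 libraries) was kept in high glucose (HG) medium at 25 mM for 7 days and then for 1 more day without the compound, and the case group (n = 3 libraries) had the same 7 days followed by 1 day in HG with 10 μM TEPP-46. Both groups therefore carried the high glucose, and the cells were of 1 line. The replicates are described as independent and separately treated, and the p-values measure the spread between these libraries of 1 line. As recovered from the FPKM values, the reads counted on genes were 18634891, 17924033, and 17378710 in control replicates 1, 2, and 3. They were 16711934, 16047243, and 15363254 in case replicates 1, 2, and 3. The paper gives larger numbers of clean reads for each library.

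Integrins are pairs of one alpha and one beta subunit that span the membrane and bind the extracellular matrix. Inside the cell, talin binds the beta subunit and, with vinculin, paxillin, tensin and other linkers, couples it to actin filaments in a focal adhesion. Filamins and alpha-actinins crosslink the filaments, profilin, cofilin, formins and the Arp2/3 complex set their growth, turnover and branching, tropomyosins and calponins coat them, and ERM proteins tie them to the membrane. Many genes of this machinery are known targets of serum response factor (SRF), which binds a DNA element called the CArG box.

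The labelled tissue was checked against its markers. Of 11 proximal tubule markers, 9 were in the table and all 9 had a mean below 0.5 FPKM, with a summed level between 0.356 and 0.637 FPKM per library and GGT1 the most abundant at 0.162 FPKM. The defining markers of differentiated proximal tubule were thus near 0, and LRP2, the endocytic receptor megalin, had a mean of 0.00114 FPKM. Keratin genes of simple epithelia were abundant, with means of 346 FPKM for KRT19, 308 for KRT8, and 190.0 for KRT18, whereas PAX8, a renal lineage factor, was at 0.114 FPKM. Of the listed markers of other cell types, 4 of 7 fibroblast, 5 of 6 endothelial and 4 of 6 leukocyte genes were in the table. Their sums were low, at 0.193 to 0.459 FPKM for the fibroblast genes (COL1A1 highest), 0.0380 to 0.101 FPKM for the endothelial genes (PECAM1 highest), and 0.479 to 1.18 FPKM for the leukocyte genes (CD14 highest). None of the listed markers found in the table was at 0 in every library. The 4 smooth muscle genes summed to 6.57 to 7.97 FPKM, nearly all of it SMTN. Among all these markers 2 passed the limma test described with the first results, both lower in the case group, namely the epithelial cadherin CDH1 (log2 fold change -0.64 ± 0.11 SE, adjusted p = 0.0156) and CD14 (log2 fold change -1.24 ± 0.31 SE, adjusted p = 0.0384), and their part in the results was not tested.

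Talin, vinculin, paxillin, tensin 3, both filamins, calponin 2, moesin, radixin and ACTR2 fell in the case group, whereas no integrin subunit passed the test and ARPC2 rose. Genes with a mean of at least 0.5 FPKM were tested by limma on log2(scaled FPKM + 0.1), and those whose adjusted p over the 13599 tested genes did not exceed 0.05 are called differentially expressed (DE). Of the 50 genes, 43 were tested and 7 were below the minimum (ITGA1, ITGB3, ITGB6, ITGB8, TLN2, ILK, and TNS1). Of the 43, 10 were downregulated (23.3%), where 5.84% of all tested genes were, and 1 was upregulated (2.33%), where 7.34% of all tested genes were. The scaled values of the groups did not overlap for 21 genes that were lower in the case group and 2 that were higher, BCAR1 and ARPC2, against 20.4% and 19.5% of all tested genes. The log2 fold changes of the 43 genes ranged from -0.87 to 0.34 with a median of -0.21, and 30 were below 0, while over all tested genes the median was -0.00 and 50.2% were below 0. A correction for gene length, described below, ended the calls of FLNA, FLNC, PXN, RDX, TLN1 and VCL. With it 6 members were downregulated, ACTB and ACTG1 among them, where 4.39% of all tested genes were, and the median was -0.09. The median of the 43 genes relative to the control mean was -0.18, -0.15, and -0.31 on the log2 scale in case replicates 1, 2, and 3 and between -0.01 and 0.01 in the controls. The controls form that mean, so their medians are drawn towards 0. The number of calls depended on single libraries, and calls over the whole table moved with them. When any 1 control library was left out, 0 of the 43 genes were called by limma, where 0.771%, 0.507%, and 0.64% of all tested genes were called without control replicates 1, 2, and 3. Without case replicate 3, 1 member was called (TNS3), where 1.41% of all tested genes were, and without case replicate 2, 17 members were downregulated, where 12.4% of all tested genes were.

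The 50 genes together took 3.00%, 3.00%, and 2.93% of the reads counted on genes in control replicates 1, 2, and 3. They took 2.49%, 2.39%, and 2.25% in case replicates 1, 2, and 3. All 3 case libraries were below all 3 controls. In bulk samples a lower share of RNA in all cells and a change in a subset of cells cannot be told apart.

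**Figure D1:**
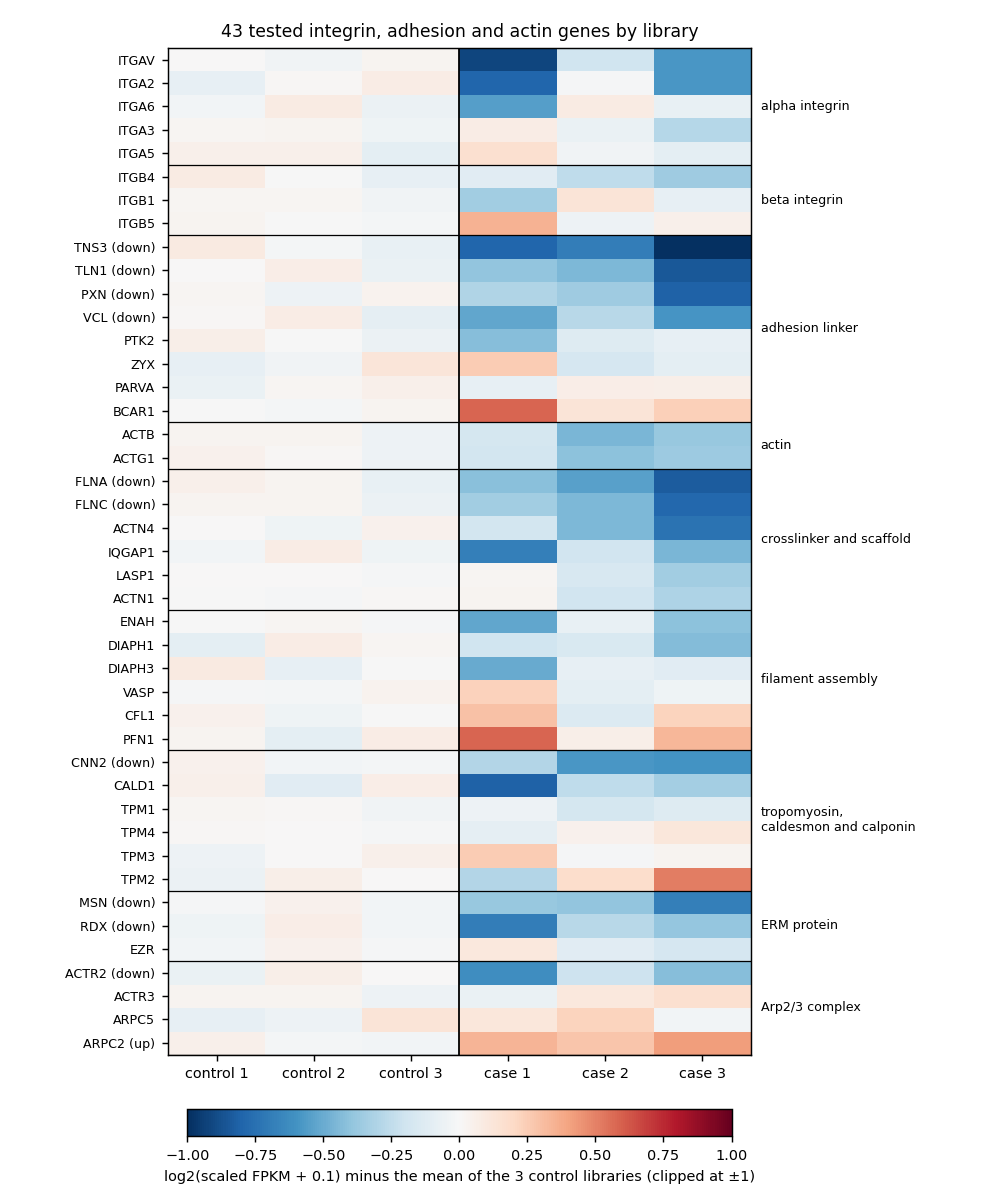
Log2 of the scaled FPKM plus 0.1 minus the mean of the 3 control libraries (colour, clipped at 1 in either direction) for the 43 tested genes in rows, by role, and the 6 libraries in columns, with DE genes marked up or down. The cells of the downregulated genes are blue in all 3 case columns, those of BCAR1 and ARPC2 are red in all 3, and the case libraries differ among themselves, with ITGAV, ITGA2 and RDX lowest in case replicate 1 and FLNA, TLN1 and PXN lowest in case replicate 3.

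Integrin subunits showed no call in either direction. The case libraries were spread much more widely than the controls for subunits such as ITGB1, ITGA2, ITGA6 and ITGAV, but not for ITGB4 or ITGA5. Of the 12 subunits 8 were tested, with a median log2 fold change of -0.14 and a range from -0.57 to 0.12. ITGA3, an alpha subunit for laminin receptors, was the most abundant alpha subunit, with FPKM of 121, 123, and 117 in control replicates 1, 2, and 3 and 116, 112, and 93.9 in case replicates 1, 2, and 3. The means were 120.2 ± 3.05 (control) and 107 ± 11.7 (case, SD, n = 3), and ITGA3 was not called (log2 fold change -0.09, standard error 0.10, adjusted p = 0.553). In deposited FPKM all 3 case libraries of ITGA3 were below the controls, and after scaling the groups overlapped. ITGB1, the beta subunit shared by most matrix-binding integrins of epithelia, was the most abundant of the 12, with FPKM of 192, 193, and 187 in control replicates 1, 2, and 3 and 137, 204, and 171 in case replicates 1, 2, and 3. Case replicate 1 was the lowest of the 6 libraries and case replicate 2 the highest, so the groups overlapped (log2 fold change -0.10, standard error 0.12, adjusted p = 0.587).

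ITGAV, the alpha subunit of the vitronectin receptors, had the lowest fold change among the tested subunits, with FPKM of 7.90, 7.72, and 8.12 in control replicates 1, 2, and 3 and 3.78, 6.72, and 5.01 in case replicates 1, 2, and 3. All case libraries were below the controls and case replicate 1 was the lowest, and the gene missed the threshold (log2 fold change -0.57, standard error 0.17, adjusted p = 0.0582). On whole reads tested with limma voom, which weights genes by their counts, ITGAV was called downregulated (adjusted p 0.00954 to 0.159 over the 20 alternatives). ITGA2, a collagen receptor subunit, had FPKM of 5.54, 5.95, and 6.22 in the controls and 3.07, 5.73, and 3.71 in the case libraries, with case replicate 2 inside the range of the controls (log2 fold change -0.46 ± 0.19 SE, adjusted p = 0.129). ITGA6, a laminin receptor subunit, had its case libraries in the same order, with FPKM of 11.9, 12.9, and 11.8 in the controls and 7.57, 12.7, and 11.1 in the case libraries (log2 fold change -0.18 ± 0.16 SE, adjusted p = 0.456). ITGB4, the hemidesmosome subunit that pairs with ITGA6, had FPKM of 10.97, 10.3, and 9.86 in the controls and 8.75, 8.52, and 7.72 in the case libraries, lower in every case library and not called (log2 fold change -0.24 ± 0.09 SE, adjusted p = 0.124). ITGA5, the fibronectin receptor subunit, and ITGB5, a partner of ITGAV, overlapped between the groups, with log2 fold changes of 0.01 and 0.12.

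The least abundant subunits rested on few reads. ITGB6, a partner of ITGAV in epithelia, had 0 to 5 reads per library, and ITGB8, another such partner, had 6 to 23. ITGA1, a collagen receptor subunit and the lowest of the alpha subunits, had FPKM of 0.263, 0.334, and 0.263 in the controls and 0.139, 0.305, and 0.256 in the case libraries, which came from 43 to 111 reads per library, and the groups overlapped. ITGB3, also a partner of ITGAV, had FPKM of 0.403, 0.521, and 0.419 in the controls and 0.191, 0.255, and 0.296 in the case libraries from 14 to 41 reads, lower in every case library, and was below the minimum for a test, and 33.2% of its exon bases overlap those of other genes.

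Focal adhesion linkers held the largest fold change of the 43 genes. Of 11 linkers 8 were tested, 4 were downregulated, where 5.84% of all tested genes were, and their median log2 fold change was -0.34. With the correction for gene length 1 of the 8, TNS3, was downregulated, where 4.39% of all tested genes were, and the median was -0.16. TNS3, a tensin that binds integrin tails and actin, lies at chr7:47275154-47582558 (GRCh38) and had FPKM of 10.2, 9.49, and 9.18 in control replicates 1, 2, and 3 and 5.05, 5.79, and 4.18 in case replicates 1, 2, and 3. The case libraries were all below the controls and case replicate 3 was the lowest. The means were 9.63 ± 0.533 (control) and 5.00 ± 0.807 (case, SD, n = 3), and TNS3 was downregulated (log2 fold change -0.87, standard error 0.12, adjusted p = 0.0112), as it was under 17 of 20 alternatives. TLN1, the talin that activates integrins by binding their beta tails, had FPKM of 129.6, 136, and 125 in control replicates 1, 2, and 3 and 90.1, 93.1, and 68.9 in case replicates 1, 2, and 3. Case replicates 1 and 2 were close together and case replicate 3 was lower still, with means of 130.1 ± 5.65 (control) and 84.0 ± 13.2 (case, SD, n = 3), with a log2 fold change of -0.56 ± 0.12 SE (adjusted p = 0.0263). PXN, the adhesion scaffold paxillin, had FPKM of 42.6, 41.0, and 43.5 in control replicates 1, 2, and 3 and 31.5, 32.5, and 23.1 in case replicates 1, 2, and 3, with its case libraries in that order as well. The means were 42.4 ± 1.30 (control) and 29.0 ± 5.17 (case, SD, n = 3), close to the threshold of the test (log2 fold change -0.48, standard error 0.13, adjusted p = 0.0496), and 27.2% of the exon bases of PXN are shared in the annotation with other genes, mostly PXN-AS1.

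VCL, the vinculin that reinforces the link of talin to actin, was the fourth downregulated linker, with FPKM of 26.5, 27.9, and 24.9 in the controls and 16.8, 21.2, and 16.7 in the case libraries (log2 fold change -0.46 ± 0.10 SE, adjusted p = 0.0266). All its case libraries were below the controls, with case replicate 2 nearest, and 11.1% of its exon bases overlap those of other genes, mostly AP3M1. BCAR1, the adhesion scaffold p130Cas, had FPKM of 19.1, 18.9, and 19.6 in the controls and 26.4, 20.6, and 21.6 in the case libraries. Every case library of BCAR1 was above every control, most of all case replicate 1, and the gene was not called (log2 fold change 0.32 ± 0.12 SE, adjusted p = 0.111). PTK2, focal adhesion kinase, had FPKM of 6.59, 6.35, and 6.11 in the controls and 4.28, 5.68, and 5.70 in the case libraries, lower in every case library, and was not called (log2 fold change -0.21 ± 0.11 SE, adjusted p = 0.224). ZYX, the LIM protein zyxin, and PARVA, the actin-binding parvin, overlapped between the groups, with log2 fold changes of -0.00 and 0.01. Of the untested linkers, ILK, a pseudokinase of adhesions, had 0 to 2 reads per library, and 78.5% of its exon bases are shared with other annotated genes, mostly TAF10, so that its level is uncertain. TLN2, the second talin, had FPKM of 0.308, 0.351, and 0.291 in the controls and 0.137, 0.208, and 0.173 in the case libraries, lower in every case library, and TNS1, another tensin, had 8 to 22 reads per library.

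Both cytoplasmic actins were lower in all 3 case libraries and missed the threshold by a narrow margin. ACTB, beta-actin, lies at chr7:5526409-5563902 (GRCh38) and had FPKM of 1802, 1813, and 1721 in control replicates 1, 2, and 3 and 1436, 1269, and 1302 in case replicates 1, 2, and 3. Case replicate 1 was the closest to the controls, and the means were 1779 ± 50.3 (control) and 1336 ± 88.5 (case, SD, n = 3), with a log2 fold change of -0.34 ± 0.10 SE (adjusted p = 0.0536). ACTG1, gamma-actin, had FPKM of 1762, 1736, and 1669 in control replicates 1, 2, and 3 and 1387, 1268, and 1278 in case replicates 1, 2, and 3, with its case libraries in the same order. The means were 1722 ± 47.9 (control) and 1311 ± 66.1 (case, SD, n = 3), with a log2 fold change of -0.32 ± 0.09 SE (adjusted p = 0.0542). The ratio of ACTB to ACTG1 within a library was 1.02, 1.04, and 1.03 in the controls and 1.04, 1.00, and 1.02 in the case libraries, which overlap. Together the pair took 1.11%, 1.11%, and 1.06% of the reads counted on genes in control replicates 1, 2, and 3. It took 0.880%, 0.790%, and 0.804% in case replicates 1, 2, and 3.

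Reads of the actins can be shared. Their longest coding sequences of 1128 bases are identical at 1029 positions (91.2%), and the annotation lists 12 pseudogenes of ACTB and 21 of ACTG1, so the split of reads between the actins is uncertain. With a correction for gene length, both actins were called downregulated (log2 fold changes -0.42 and -0.42). ACTB was called under 11 of 20 alternatives (adjusted p 0.000739 to 0.427 over the 20 alternatives) and ACTG1 under 10 of 20 (adjusted p 0.00141 to 0.447 over the 20 alternatives).

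Actin crosslinkers and scaffolds had a median log2 fold change of -0.45, and all 6 were below 0, where 50.2% of all tested genes were. Of the 6, both filamins were downregulated, where 5.84% of all tested genes were. With the correction for gene length neither filamin was called, nor any other gene of the 6, and the median was -0.26. FLNA, filamin A, lies at chrX:154348524-154374634 (GRCh38) and had FPKM of 276, 273, and 256 in control replicates 1, 2, and 3 and 183, 179.9, and 143 in case replicates 1, 2, and 3. All case libraries were far below the controls and case replicate 3 was the lowest. The means were 268 ± 10.7 (control) and 169 ± 22.3 (case, SD, n = 3), with a log2 fold change of -0.60 ± 0.11 SE (adjusted p = 0.0195). FLNC, filamin C, had FPKM of 64.5, 64.7, and 61.3 in control replicates 1, 2, and 3 and 45.5, 45.5, and 35.0 in case replicates 1, 2, and 3, with case replicates 1 and 2 alike and case replicate 3 the lowest. The means were 63.5 ± 1.93 (control) and 42.0 ± 6.05 (case, SD, n = 3), with a log2 fold change of -0.53 ± 0.12 SE (adjusted p = 0.0268). IQGAP1, a scaffold of Rac and Cdc42 signalling and the least abundant of the 6, had FPKM of 34.7, 37.5, and 34.6 in control replicates 1, 2, and 3 and 20.3, 30.4, and 24.7 in case replicates 1, 2, and 3. Here case replicate 1 was the lowest, the groups did not overlap, and the gene missed the threshold (log2 fold change -0.44, standard error 0.12, adjusted p = 0.0507). ACTN4, alpha-actinin 4, had FPKM of 204, 199, and 211 in the controls and 165, 146, and 117 in the case libraries and was not called (log2 fold change -0.46 ± 0.13 SE, adjusted p = 0.0566), and 14.2% of its exon bases overlap those of other genes, mostly CAPN12. ACTN1, the other alpha-actinin, and LASP1, an adaptor of actin and zyxin, overlapped between the groups after scaling, at -0.16 and -0.16 on the log2 scale.

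**Figure D2:**
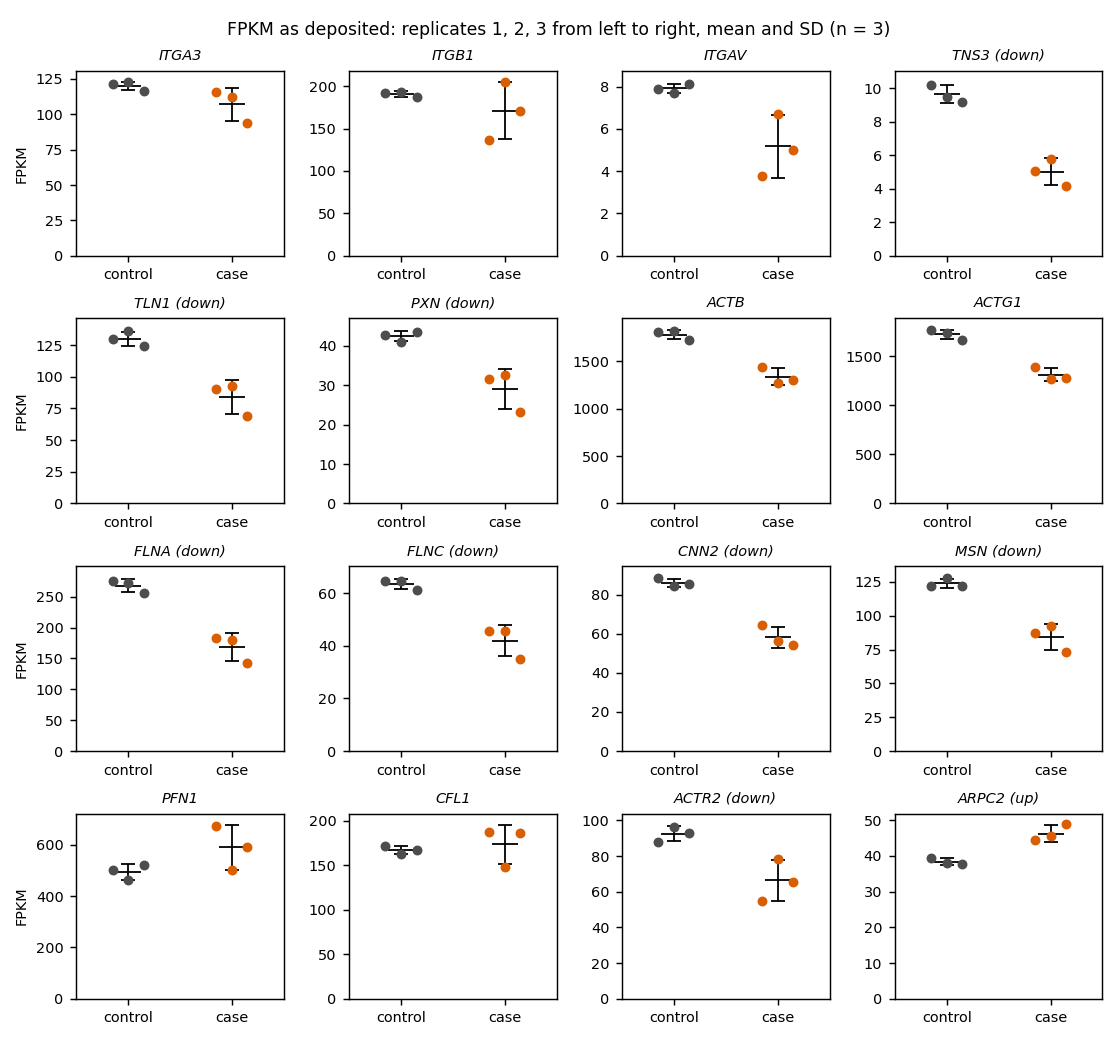
FPKM as deposited (vertical axes, from 0) of 16 genes in the control group (grey) and the case group (orange), with replicates 1, 2, and 3 from left to right and lines for the mean and SD (n = 3 libraries). The case points of TNS3, TLN1, PXN, FLNA, FLNC, CNN2, MSN and ACTR2 lie below all control points, those of ARPC2 above them, and those of ITGB1, PFN1 and CFL1 overlap the controls.

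Promoters of these genes were searched for the CArG box, since SRF is a known regulator of actin genes. The windows ran from 250 bases before to 50 bases after each gene start in RefSeq (GRCh38.p14). A gene can have several such starts, as 35116 windows served 27305 genes. The box was searched by its consensus on both strands, where it reads alike. Of the 50 genes 44 had a window, and 6 of the 44 (13.6%) held a box, namely ACTG1, FLNA, CNN2, ACTN1, TPM4 and ITGB6. Over all genes with a window, 1.60% held one. Of the 10 downregulated genes, FLNA and CNN2 held a box. No window was matched for ITGA3, ITGB3, ITGB4, PTK2, PARVA and ACTB. The sequences below are shown because they place the box in 2 downregulated genes, in ACTG1 and in TPM4, which was not called. They run 5′ to 3′ on the strand of the gene, and capitals mark the box.
FLNA (chrX:154374679-154374768, minus strand): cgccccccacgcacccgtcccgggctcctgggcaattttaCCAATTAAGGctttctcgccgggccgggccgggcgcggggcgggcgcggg
CNN2 (chr19:1026479-1026568, plus strand): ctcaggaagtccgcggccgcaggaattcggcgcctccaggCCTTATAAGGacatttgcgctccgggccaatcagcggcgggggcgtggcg
ACTG1 (chr17:81512844-81512933, minus strand): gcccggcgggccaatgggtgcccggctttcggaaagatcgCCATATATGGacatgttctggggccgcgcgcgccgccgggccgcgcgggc
TPM4 (chr19:16067325-16067414, plus strand): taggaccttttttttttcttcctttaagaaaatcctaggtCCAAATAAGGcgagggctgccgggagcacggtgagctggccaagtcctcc
The box began 94 bases before the start that defined its window in FLNA and in ACTG1, 89 in CNN2, and 173 in TPM4. In ACTG1 and TPM4 that start is not the outermost one, and the box lies inside the gene as annotated in GENCODE. The tested genes with a box had log2 fold changes of -0.60 (FLNA), -0.49 (CNN2), -0.32 (ACTG1), -0.16 (ACTN1), and 0.02 (TPM4). The match is a description of these windows and does not show binding.

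Regulators of filament assembly had no call, a median log2 fold change of -0.10, and members on both sides of 0. PFN1, profilin, which feeds monomers to growing filaments, was the most abundant, with FPKM of 500.2, 462, and 521 in control replicates 1, 2, and 3 and 675, 502, and 593 in case replicates 1, 2, and 3. Case replicate 2 lay among the controls and case replicate 1 was far above them (log2 fold change 0.32, standard error 0.13, adjusted p = 0.133). CFL1, cofilin, which severs filaments, had FPKM of 171, 162, and 167 in the controls and 187, 148, and 186 in the case libraries, with case replicate 2 below the controls and the other case replicates above them (log2 fold change 0.13 ± 0.12 SE, adjusted p = 0.488). The annotation lists 10 pseudogenes of PFN1 and 8 of CFL1, and 19.0% of the exon bases of CFL1 overlap those of other genes, mostly MUS81. DIAPH3, a formin and the least abundant of the 6, had FPKM of 5.61, 4.99, and 5.29 in control replicates 1, 2, and 3 and 3.38, 4.89, and 4.66 in case replicates 1, 2, and 3. Case replicate 1 was the lowest, and the groups overlapped after scaling (log2 fold change -0.23, standard error 0.13, adjusted p = 0.256). DIAPH1, another formin, was lower in every case library (log2 fold change -0.26 ± 0.10 SE, adjusted p = 0.109), as was ENAH, which protects filament ends from capping (log2 fold change -0.33 ± 0.12 SE, adjusted p = 0.0957), and neither was called. VASP, of the same family as ENAH, overlapped between the groups at 0.03 on the log2 scale.

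Of the tropomyosin, caldesmon and calponin genes, CNN2 was downregulated and the tropomyosins were not called. CNN2, calponin 2, had FPKM of 88.3, 84.5, and 85.3 in control replicates 1, 2, and 3 and 64.3, 56.3, and 54.2 in case replicates 1, 2, and 3. All case libraries were below the controls, case replicate 1 the least so. The means were 86.0 ± 2.03 (control) and 58.2 ± 5.33 (case, SD, n = 3), with a log2 fold change of -0.49 ± 0.10 SE (adjusted p = 0.0221), and the log2 fold change was -0.54 with a correction for gene length. TPM3, the most abundant tropomyosin, had FPKM of 154, 161, and 167 in control replicates 1, 2, and 3 and 176, 156, and 156 in case replicates 1, 2, and 3, with case replicates 2 and 3 inside the range of the controls (log2 fold change 0.09, standard error 0.09, adjusted p = 0.528). TPM2 was the lowest, with FPKM of 1.21, 1.32, and 1.28 in control replicates 1, 2, and 3 and 0.931, 1.42, and 1.77 in case replicates 1, 2, and 3 from 63 to 110 reads, and its case libraries lay on both sides of the controls (log2 fold change 0.13, standard error 0.22, adjusted p = 0.704). CALD1, caldesmon, had FPKM of 2.92, 2.60, and 2.96 in the controls and 1.43, 2.30, and 2.11 in the case libraries, below the controls in every case library and lowest in case replicate 1, and was not called (log2 fold change -0.47 ± 0.17 SE, adjusted p = 0.0953). TPM1 was lower in every case library after scaling at -0.12 on the log2 scale, and TPM4 overlapped between the groups at 0.02. Of the exon bases of TPM1, 22.7% overlap those of other genes, and the annotation lists 9 pseudogenes of TPM3.

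Moesin and radixin fell, and ezrin overlapped between the groups. With the correction for gene length MSN was called and RDX was not (-0.36). MSN, moesin, had FPKM of 122, 128, and 122 in control replicates 1, 2, and 3 and 87.2, 92.5, and 73.5 in case replicates 1, 2, and 3. The case libraries were all below the controls, and case replicate 3 was the lowest. The means were 124 ± 3.21 (control) and 84.4 ± 9.81 (case, SD, n = 3), with a log2 fold change of -0.48 ± 0.10 SE (adjusted p = 0.0224). RDX, radixin, had FPKM of 21.1, 22.9, and 21.5 in control replicates 1, 2, and 3 and 12.3, 17.6, and 15.9 in case replicates 1, 2, and 3, lowest in case replicate 1. The means were 21.8 ± 0.930 (control) and 15.3 ± 2.70 (case, SD, n = 3), with a log2 fold change of -0.45 ± 0.11 SE (adjusted p = 0.0403). EZR, ezrin, the ERM protein of epithelial microvilli, had FPKM of 121, 128, and 124 in control replicates 1, 2, and 3 and 122, 112, and 105 in case replicates 1, 2, and 3, with case replicate 1 inside the range of the controls (log2 fold change -0.06, standard error 0.09, adjusted p = 0.678). Within a library the ratio of MSN to EZR was 1.01, 1.00, and 0.986 in the controls and 0.716, 0.823, and 0.699 in the case libraries, which do not overlap. This ratio was not corrected for gene length, and the exon lengths were 5971 bases (MSN) and 3342 bases (EZR). With the correction the log2 fold changes were -0.41 (MSN) and -0.14 (EZR).

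Of 4 genes of the Arp2/3 complex, which nucleates branched filaments, ARPC2 rose, ACTR2 fell, and ARPC5 and ACTR3 were not called. ARPC2, a subunit that contacts the mother filament, lies at chr2:218217141-218254356 (GRCh38) and had FPKM of 39.5, 37.9, and 37.8 in control replicates 1, 2, and 3 and 44.4, 45.6, and 48.8 in case replicates 1, 2, and 3. All case libraries were above all controls, and case replicate 3 was the highest. The means were 38.4 ± 0.960 (control) and 46.3 ± 2.28 (case, SD, n = 3), with a log2 fold change of 0.34 ± 0.07 SE (adjusted p = 0.0256), and the call was lost with quantile normalization, with TPM, without the intensity trend, without any 1 control replicate, and without case replicate 3. ACTR2, which encodes the actin-related protein Arp2, had FPKM of 88.1, 96.5, and 93.0 in control replicates 1, 2, and 3 and 55.0, 78.4, and 65.6 in case replicates 1, 2, and 3. Its case libraries were all below the controls, case replicate 1 the lowest. The means were 92.5 ± 4.23 (control) and 66.3 ± 11.7 (case, SD, n = 3), with a log2 fold change of -0.42 ± 0.11 SE (adjusted p = 0.044). ARPC5, a further subunit and the least abundant of the 4, had FPKM of 13.1, 13.4, and 15.2 in control replicates 1, 2, and 3 and 13.7, 15.8, and 12.9 in case replicates 1, 2, and 3, which overlapped (log2 fold change 0.10, standard error 0.10, adjusted p = 0.51). ACTR3, which encodes Arp3, had FPKM of 18.1, 18.3, and 17.3 in the controls and 15.7, 18.9, and 19.1 in the case libraries, which overlapped as well (log2 fold change 0.07 ± 0.09 SE, adjusted p = 0.613). With a correction for gene length ACTR3 was called upregulated at 0.34 on the log2 scale (adjusted p 0.0309 to 0.964 over the 20 alternatives).

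Ratios of pairs of these genes within a library do not depend on the scaling between libraries. They were not corrected for gene length, described below, and paired genes can differ in length. The pairs were chosen after their values were seen, and 12 were compared by two-sided exact permutation tests, whose smallest p with 3 against 3 libraries is 0.1. The ratio of ACTR2 to ARPC2 was 2.23, 2.55, and 2.46 in the controls and 1.24, 1.72, and 1.34 in the case libraries (exact permutation p = 0.1, adjusted p = 0.133). The ratio of PFN1 to ACTB was 0.278, 0.255, and 0.302 in the controls and 0.470, 0.395, and 0.456 in the case libraries (exact permutation p = 0.1, adjusted p = 0.133). Neither ratio overlapped between the groups. For ACTR2 to ARPC2 this was fixed beforehand, since ACTR2 was lower and ARPC2 higher in every case library. For PFN1 to ACTB, and for MSN to EZR, the ranges of the paired genes in each group also fixed it. The p-values of these ratios therefore add nothing. Those of all 12 are descriptive, given how the pairs were chosen. The ratios of ITGA3 to ITGB1 and of ITGA5 to ITGB1 did overlap (exact permutation p = 1 and p = 0.9). Of the other ratios among the 12, only ACTB to ACTG1 overlapped (exact permutation p = 0.3). Among single tested genes, 20.4% were lower and 19.5% higher in the case group without overlap. No such share was computed for pairs of genes, so the number of ratios without overlap is not a result about these pairs.

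Long genes were lower in the case libraries across the whole table, and many adhesion and actin genes are long. The median exon length was 7259 bases for the 43 genes and 4329 for all tested genes. Among all tested genes the median log2 fold change was 0.16 for the 2751 genes under 2000 bases, where 2.07% were downregulated, and -0.34 for the 628 genes of at least 12000 bases, where 19.7% were. In the class from 8000 to under 12000 bases, the 13 members had a median of -0.46 with 5 downregulated, and all 1677 genes of the class had a median of -0.19 with 12.6% downregulated. In the class from 6000 to under 8000 bases, the 14 members had a median of -0.21 with 2 downregulated and 1 upregulated, and all 2051 genes had -0.11 with 8.04% downregulated and 3.80% upregulated. The 5 members from 4000 to under 6000 bases had a median of 0.10 with 2 downregulated, and all 3019 genes of that class had -0.01 with 4.90% downregulated. The 6 members from 2000 to under 4000 bases had a median of -0.19 with 1 downregulated, and all 3473 genes had 0.11 with 2.56% downregulated. The 4 members of at least 12000 bases had a median of -0.16 and no call. Across genes, which share the libraries and are not independent, Pearson's r of the fold change with log2 exon length was -0.30 over the 43 members and -0.28 over all tested genes.

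**Figure D3:**
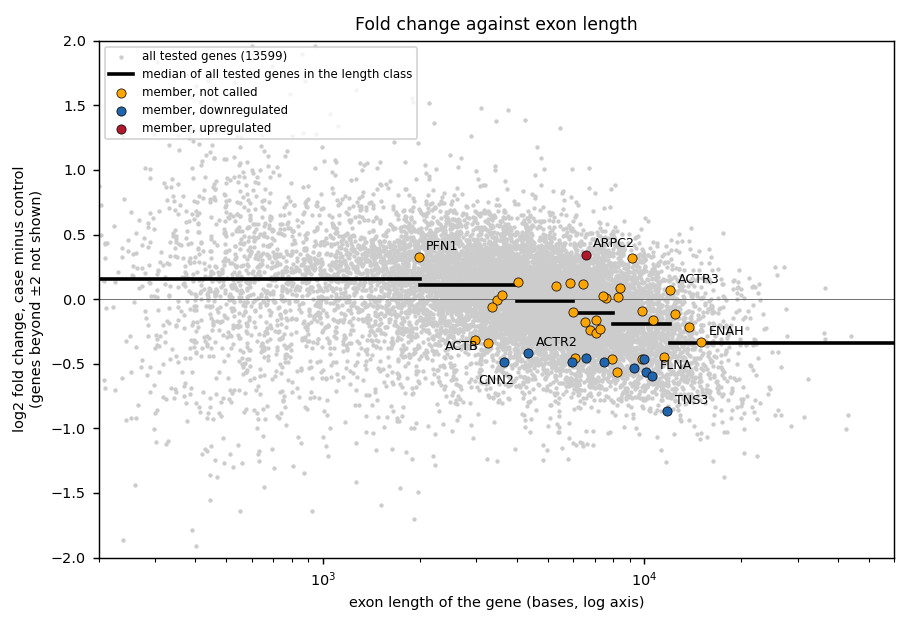
Log2 fold change (case minus control, vertical axis) against exon length in bases (log axis) for all tested genes (grey) and the 43 members (orange not called, blue downregulated, red upregulated), with black lines at the median of all tested genes in each length class. The lines step down from 0.16 below 2000 bases to -0.34 from 12000 bases, and TNS3 and FLNA lie below the line of their class.

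A correction for gene length, fitted in each library over all genes, removed 6 of the 10 downregulated calls and left the direction of all 10. After it, 6 of the 43 genes were downregulated, where 4.39% of all tested genes were, and 2 were upregulated, where 6.59% were. TNS3, CNN2, MSN and ACTR2 were called with and without the correction, with corrected log2 fold changes of -0.60, -0.54, -0.41 and -0.43. FLNA, TLN1, FLNC, PXN, VCL and RDX were not called after the correction, at -0.36, -0.35, -0.34, -0.36, -0.25 and -0.36. ARPC2 remained upregulated at 0.44. The median of the 43 genes moved from -0.21 to -0.09. Of the 43 genes 26 were below 0 after the correction, where 30 had been before it. The genes that turned from below to above 0 were ITGA3 (-0.09 to 0.11), PTK2 (-0.21 to 0.10), ACTN1 (-0.16 to 0.08), TPM1 (-0.12 to 0.17) and ENAH (-0.33 to 0.01), and VASP turned the other way (0.03 to -0.03), none of them called in either fit. LASP1 went from -0.16 to -0.05. With a correction for both length and GC content, 14 members were downregulated, where 9.29% of all tested genes were, and 3 upregulated, where 10.9% were, and of the 10 downregulated genes PXN alone was lost. By limma voom on whole reads, 17 members were downregulated, where 11.1% of all tested genes were, and 1 was upregulated, where 9.57% were.

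**Figure D4:**
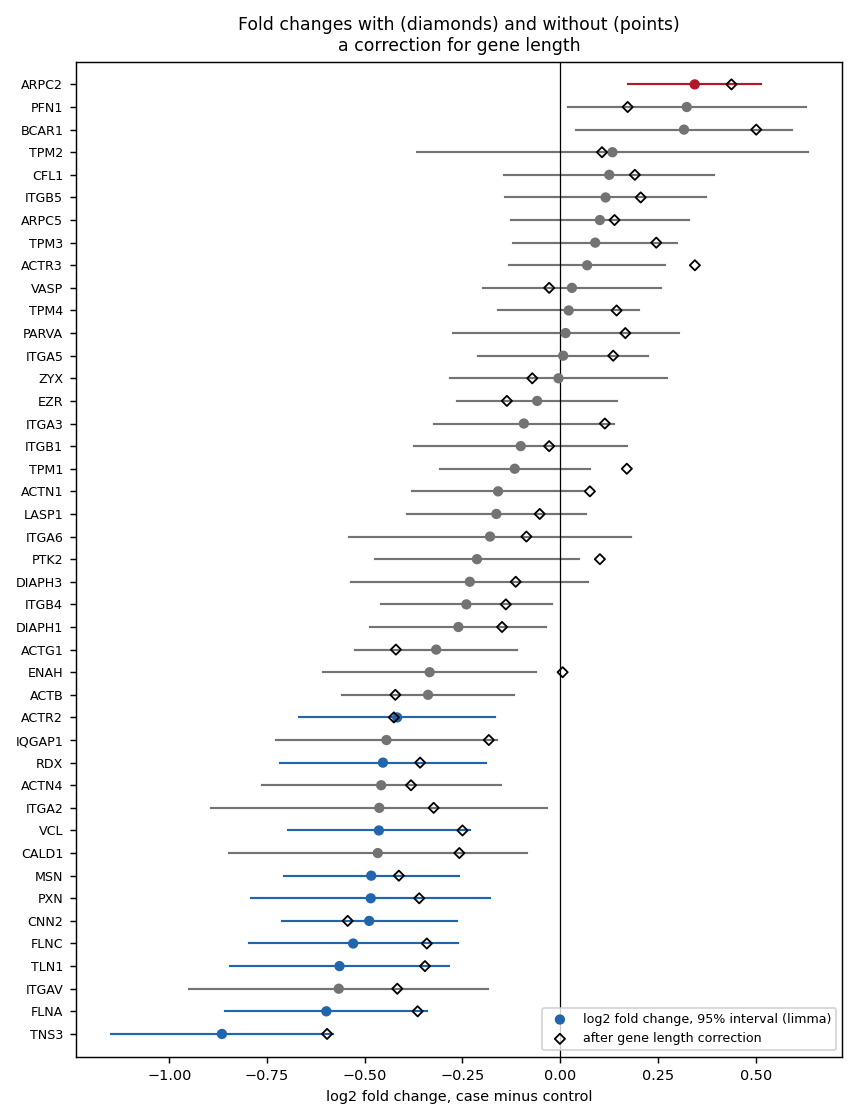
Log2 fold change (case minus control) of the 43 tested genes with 95% intervals from limma (points and lines, blue downregulated, red upregulated, grey not called) and after the correction for gene length (open diamonds). The order runs from ARPC2 at 0.34 to TNS3 at -0.87, and most diamonds of the genes below 0 lie to the right of their points, whereas those of ZYX, EZR, ACTG1, ACTB, CNN2 and, slightly, ACTR2 lie to the left.

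Other genes of adhesion and actin were read from a list of 136 symbols, of which 134 were in the table and 108 were tested. In this list 15 genes were downregulated (13.9%), where 5.84% of all tested genes were, and 3 upregulated (2.78%), where 7.34% were, with a median log2 fold change of -0.14. With the correction for gene length, the median was -0.04, and 5 of the 108 were downregulated and 3 upregulated, near the 4.39% downregulated among all tested genes and below the 6.59% upregulated. With length and GC content corrected, 14 were downregulated and 10 upregulated, where 9.29% and 10.9% of all tested genes were. By limma voom, 28 were downregulated and 8 upregulated, where 11.1% and 9.57% of all tested genes were. In the fit reported, further integrin subunits had no call among 3 tested, further linkers had 6 downregulated of 32, and further actin binders 5 of 39. With the length correction, 1 of the 3 integrin subunits was upregulated, and 2 linkers and 2 actin binders were downregulated. The 4 muscle actin genes were below the minimum. TNS4, a tensin without the actin-binding region, had the largest change, with FPKM of 2.38, 2.66, and 2.14 in control replicates 1, 2, and 3 and 0.864, 0.900, and 0.927 in case replicates 1, 2, and 3. Its case libraries were close to each other and far below the controls (log2 fold change -1.24, standard error 0.14, adjusted p = 0.00603), and it was called under 19 of 20 alternatives. LPP, a LIM protein related to zyxin, fell (log2 fold change -0.90 ± 0.24 SE, adjusted p = 0.0462), as did IQGAP2, a relative of IQGAP1 (log2 fold change -0.88 ± 0.24 SE, adjusted p = 0.0495), MRTFB, a coactivator of SRF (log2 fold change -0.84 ± 0.22 SE, adjusted p = 0.0435), and FMNL3, a formin (log2 fold change -0.63 ± 0.17 SE, adjusted p = 0.0454). With the correction for gene length none of these 4 was called, at -0.41 for LPP, -0.74 for IQGAP2, -0.47 for MRTFB, and -0.33 for FMNL3, whereas TNS4 was called at -1.23. With length and GC content corrected, LPP, IQGAP2 and MRTFB were called and FMNL3 was not.

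All 3 upregulated genes of that list belong to the Arp2/3 complex or its activators, of which 16 were tested, 3 rose and 1 fell, where 7.34% and 5.84% of all tested genes did. With the correction for gene length, 2 of the 16 were called, both upregulated, where 6.59% of all tested genes were. BRK1, a small subunit of the WAVE complex that activates Arp2/3, had FPKM of 96.8, 85.7, and 93.2 in control replicates 1, 2, and 3 and 131, 126, and 126 in case replicates 1, 2, and 3. Every case library was above every control (log2 fold change 0.55, standard error 0.08, adjusted p = 0.0127). ARPC3, an Arp2/3 subunit, had FPKM of 39.3, 38.5, and 37.6 in control replicates 1, 2, and 3 and 46.3, 46.9, and 63.2 in case replicates 1, 2, and 3, highest in case replicate 3 (log2 fold change 0.50, standard error 0.12, adjusted p = 0.0368), and it was called under 9 of 20 alternatives, with losses that include the correction for gene length (0.40), FPKM as deposited, quantile normalization, and TPM. ARPC5L, an isoform of ARPC5, had FPKM of 30.6, 32.4, and 32.1 in the controls and 40.4, 37.5, and 41.2 in the case libraries, again without overlap (log2 fold change 0.40 ± 0.08 SE, adjusted p = 0.0231). The subunits ARPC4, ARPC1A and ARPC1B had log2 fold changes of 0.46, 0.27 and 0.30 and were not called. The genes named here are those that rose. Over all 16 the median log2 fold change was -0.03, with a range from -0.60 to 0.55, and 8 were below 0.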

How the data were processed

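Gene expression of HK-2 cells was measured by RNA sequencing of 6 libraries. The authors aligned reads to GRCh38.p13 with HISAT2 2.1.0, counted them on genes with HTSeq 0.6.0, and deposited FPKM values of 29483 genes. The annotation version, RNA selection and strandedness are not given in the sources used here, so reads of overlapping genes may be shared. The 50 genes, their roles and the lists were chosen with earlier results of these data known.

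In R 4.3.3, each column of FPKM was scaled by its median-of-ratios factor (0.944 to 1.04), and 0.1 was added before taking log2, so that fold changes of low genes are understated. For genes whose mean FPKM reached 0.5, the groups were compared by limma 3.58.1 with an intensity trend and no covariates, with Benjamini-Hochberg adjustment over 13599 genes and a threshold of 0.05. Whole reads per gene, and the total counted on genes in each library, were recovered from the steps of low FPKM values. Of the genes above 0, 90.7% were resolved to 1 length within 0.002 reads. Of these genes, 12099 took the exon length of the GENCODE annotation of GRCh38 and 13233 a length found from the FPKM values. The resolved lengths set the length classes, for example 8211 bases for ITGAV, which is annotated at 19336. With no molecular identifiers, reads are not counts of separate molecules. The length correction subtracted a lowess curve (span 0.3) per library. Scripts were tested on simulated data.

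Values were given in full for DE members (at most 3 per role), for ACTB and ACTG1, for the highest and lowest member of each role, and for the 5 most changed DE genes per direction of the pathway list; others were named after their values were seen. In total 20 alternatives were run, including each replicate left out in turn. The counts of 1 group of the pathway list are not reported here.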

Additional observations from a re-analysis of the deposited data

How the results depend on the processing

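Values were recomputed under 20 alternatives. No member or named gene turned to a call in the opposite direction. The 10 downregulated members became 1 with no filter on low values (TNS3), 16 with quantile normalization, 23 with TPM, 2 without the intensity trend (TNS3 and FLNA), 17 with voom, 6 with the length correction, and 6 with the replicate block and length correction together, and they ranged from 0 to 17 when 1 replicate was left out. Over all tested genes the downregulated share, 5.84% in the fit reported, moved as well, to 0.634% with no filter, 6.58% with quantile normalization, 17.6% with TPM, 3.06% without the trend, 11.1% with voom, 4.39% with the length correction, and 2.60% with block and length together. The downregulated members were 0 without any 1 control replicate, 1 without case replicate 3, 14 without case replicate 1 (7.86% of all tested genes), and 17 without case replicate 2. The 1 upregulated member became 0 with quantile normalization, TPM, or no trend, 2 with the length correction, and 3 with length and GC together, and ranged from 0 to 4 when 1 replicate was left out, the 4 without case replicate 2. The upregulated share of all tested genes, 7.34% in the fit reported, was 6.42% with quantile normalization, 2.82% with TPM, 3.21% without the trend, 6.59% with the length correction, 10.9% with length and GC, and 13.4% without case replicate 2. The median of the members, -0.21, was -0.29 in FPKM as deposited, -0.31 after quantile normalization, -0.41 in TPM, -0.08645 with the length correction, with or without the block, and -0.0927 with length and GC. TPM moved the median of all tested genes by -0.19, and relative to it the members stood at -0.21. With the replicate block alone, 11 members were downregulated (IQGAP1 added) and 1 upregulated, where 5.603% and 6.24% of all tested genes were. Deviations of same-numbered libraries correlated at 0.06, 0.10, and -0.05 for numbers 1, 2, and 3, and case replicate 1 correlated most with control replicate 3 (0.117), so the numbers were not taken to pair the samples. The cause of these differences was not tested. In these 3 against 3 libraries, exact permutation tests cannot reach 0.05, and ITGB6, ILK, TNS1 and ITGB8 had at most 23 reads per library.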
